A study of Homo sapiens with 6 samples.

Results

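Collagens, laminins, integrins and 7 further matrix and adhesion genes (SPARC, TNC, FBN1, THBS1, CD44, LOX and LOXL2) were described in human breast cancer cells labelled MDA-MB-231, an established, mesenchymal-like and oestrogen receptor negative line, cultured for 24 h with the agent CTI-2 (3 libraries) or with no agent (3 control libraries). The genes were taken from the gene count table by symbol, whatever their values: every collagen, laminin chain and integrin subunit whose symbol has the family's usual form, plus the 7 named genes. This gave 63 of the 16362 genes in the table: 9 fibrillar collagens, 20 other collagens, 11 laminins, 10 integrin alpha subunits, 6 integrin beta subunits and the 7 others. All libraries come from a single cell line. CTI-2 is known here by its code name only, and neither its dose nor a vehicle for the controls is given in the sources used here. Each library was made from total RNA with an Oxford Nanopore cDNA-PCR kit, a long-read method. Summed over genes, counts were 2208261 to 3153469 in the CTI-2 libraries and 2349758 to 3929532 in the control libraries. At these depths 3 counts in a library equal 0.763 to 1.36 CPM (counts per 1000000 counts of the library), so a count of 0 allows a level up to that value, for counting error only.

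Collagens are secreted triple-helical proteins: fibrillar types build the rope-like fibres of connective tissue, and type IV forms the mesh of basement membranes. Laminins are basement membrane proteins assembled from an alpha, a beta and a gamma chain, and integrins are cell-surface receptors, each an alpha and a beta subunit, that hold cells to both and signal from them. SPARC is a collagen-binding matrix protein, TNC (tenascin C) and THBS1 (thrombospondin) are matrix proteins that modulate adhesion, FBN1 builds microfibrils, LOX and LOXL2 crosslink collagen, and CD44 is the receptor for hyaluronan. In breast cancer these genes are studied for invasion and metastasis, which the series title names as its interest.

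After CTI-2 the type IV collagen genes COL4A1 and COL4A2 fell, by 0.78 and 0.64 on the log2 scale, and so did the laminin gamma chain gene LAMC3, by 0.60. They were among the 4 genes, of 41 tested, below the threshold of 0.05 when p-values from edgeR's quasi-likelihood test were adjusted by Benjamini-Hochberg over all 9848 genes tested (adjusted p = 0.00110, 0.00790 and 0.0119). None of the 41 tested genes rose by this test, in which 11 of the 41 had an unadjusted p under 0.05 (23.9% of all tested genes did). DESeq2 and limma-voom also gave 0 higher genes (backgrounds 3.78% and 3.38% of all genes they tested). The share of the 41 that were lower by the test has to be read against a background of 4.64% of all tested genes called lower, 3.39% called higher and 8.03% called in either direction. The 4 calls are 9.76% of the 41, near the 8.03% called in either direction and above the 4.64% called lower, and nothing particular to these genes as a group is read from 4 calls. Of the 41, 31 had a negative log2 fold change (75.6%, against 51.3% of all tested genes), and the median was -0.24, against -0.01 over all tested genes.

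**Figure D1:**
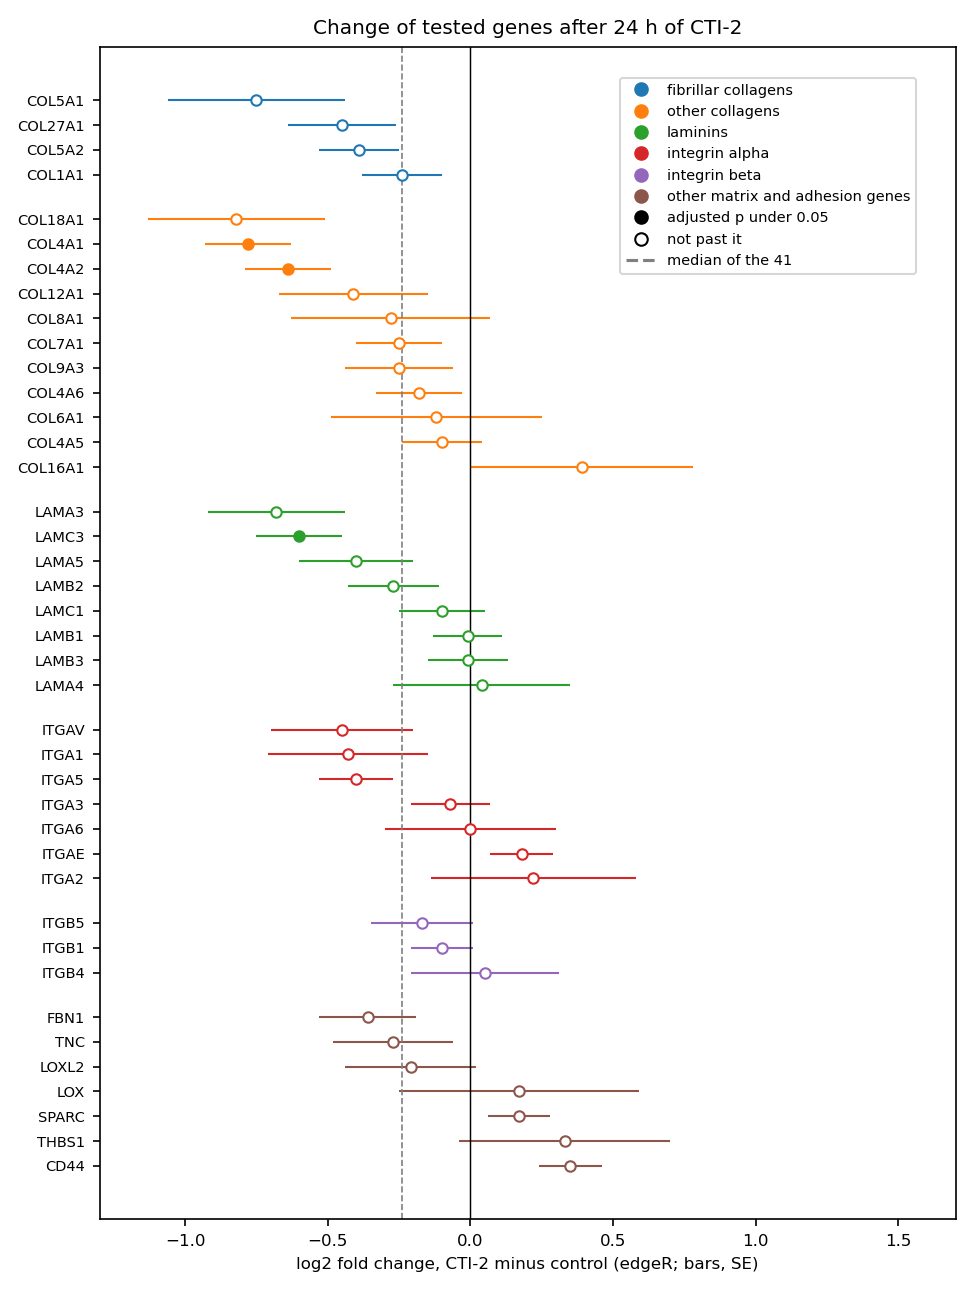
Log2 fold changes (horizontal axis, CTI-2 minus control, edgeR, bars are SE, 3 libraries per group) of tested genes, by family, with the median of all 41 as a dashed line. The filled points COL4A1, COL4A2 and LAMC3 passed the adjusted p of 0.05, and the 4 fibrillar collagens all lie below 0 without passing it.

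Control 2 stood apart from the other controls for these genes, and in the same direction, by less, for long transcripts over all genes. The summed level of the 63 genes was 2498, 2469 and 2436 CPM in CTI-2 libraries 1 to 3, and 2883, 2303 and 3279 CPM in controls 1 to 3. Control 2 was thus below every CTI-2 library, while controls 1 and 3 were above them. The median deviation of the 41 tested genes from their own mean over the 6 libraries was 0.02, -0.10 and -0.22 in CTI-2 libraries 1 to 3, and 0.16, -0.16 and 0.35 in controls 1 to 3, on the log2 CPM scale. Without control 2, 12 of 41 tested genes were lower and 2 higher (background 6.53% lower and 9.57% higher), with a median log2 fold change of -0.33. Without control 1 or without control 3, 2 of 42 tested genes were lower (background 2.95% and 3.64%) and the medians were -0.15 and -0.12. Leaving out CTI-2 library 2 or 3 also left 2 lower calls (background 3.0% and 2.74%). Control 2 also had the most counts of the 6 libraries, 3929532, against 2596184 and 2349758 in controls 1 and 3. The CTI-2 libraries had at most 3153469. The part of depth was not tested, and the sources used here do not say why the controls differ.

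Many of these genes have long transcripts. The longest annotated transcript of the 41 tested genes had a median of 6483 bases (range 2497 to 11756), against 3360 bases over all tested genes with an annotation, and 24 of the 41 fell in the longest of 5 equal length classes of all genes. In that class, which starts at 5737 bases, the median log2 fold change over all genes was -0.09, against 0.10 in the shortest class. The median deviation of all genes of the longest class from their own mean was 0.00, -0.03 and -0.07 in CTI-2 libraries 1 to 3, and 0.07, -0.04 and 0.13 in controls 1 to 3, on the log2 CPM scale. In the shortest class it was 0.06, 0.07 and 0.08 in CTI-2 libraries and -0.08, 0.07 and -0.17 in controls, so control 2 lay with the CTI-2 libraries in both classes. Among the 41 genes log2 fold change and transcript length had a Spearman rho of -0.39, and over the 9218 tested genes with a length it was -0.19; these are correlations across genes in the same libraries and carry no p. Once the trend with length was taken out of each library, COL4A1, COL4A2 and LAMC3 were still lower, CD44 was higher (log2 fold change 0.41, adjusted p = 0.0390; background 4.08% lower and 3.54% higher), and the median of the 41 was -0.16. The part of transcript length in these results was not tested further.

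**Figure D2:**
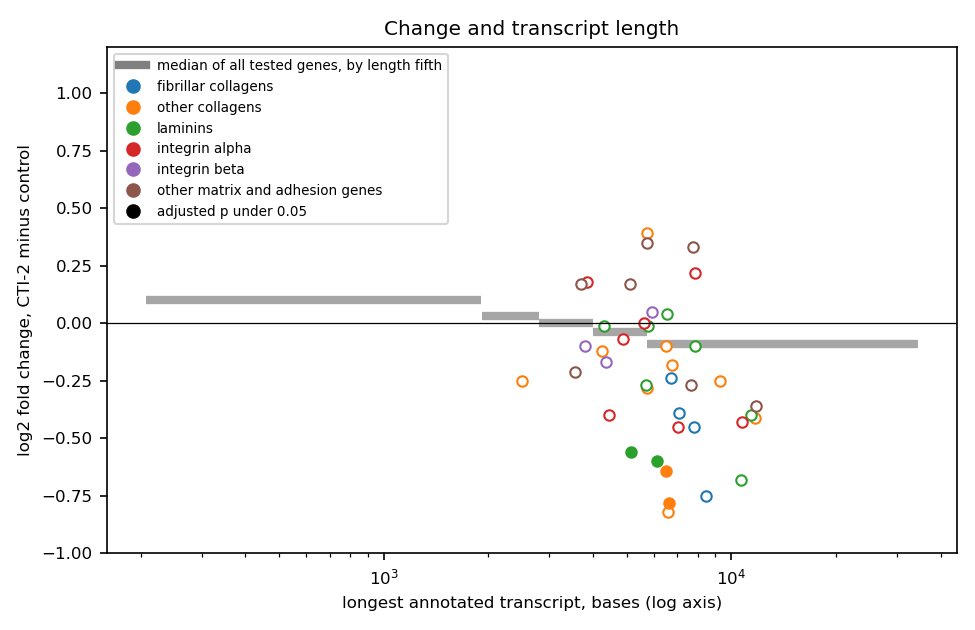
Log2 fold change (vertical axis, CTI-2 minus control) against the longest annotated transcript in bases (log axis) for the 41 tested genes; filled points passed an adjusted p of 0.05. Grey bars are medians of all tested genes in 5 length classes and run from 0.10 for the shortest to -0.09 for the longest.

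The cells were checked against marker genes. Of 9 genes commonly described as present in MDA-MB-231, all had reads, summing to 4168 to 4259 CPM in CTI-2 libraries and 3652 to 3907 CPM in controls, most of it S100A4. One of the 9 passed, against 8.03% of all tested genes called in either direction. This was ANXA1, with 568, 574 and 593 CPM in CTI-2 libraries and 463, 514 and 424 CPM in controls (adjusted p = 0.0497). VIM, usually abundant in this line, had 53, 47 and 32 counts in CTI-2 libraries and 49, 74 and 43 counts in controls. The fibroblast genes COL1A2, COL3A1 and DCN had 0 to 3 counts in every library, the leukocyte gene CD68 at most 1 count, and the epithelial gene CDH1 a single count in CTI-2 library 2 and 0 elsewhere. The endothelial genes PECAM1 and CDH5 had 5 to 18 and 2 to 7 counts per library, summing to 4.12 to 6.74 CPM in CTI-2 libraries and 3.47 to 5.09 CPM in controls. The summed level of the 7 fibroblast genes in the table was 73.4 to 76.1 CPM in CTI-2 libraries and 70 to 112 CPM in controls, nearly all of it COL1A1 and PDGFRB. The 8 luminal epithelial genes in the table summed to 14.0 to 18.9 CPM in CTI-2 libraries and 23.0 to 24.3 CPM in controls, mostly EPCAM, CLDN4 and KRT19. Neither that sum nor the MDA-MB-231 sum overlapped between groups. Of single genes over all tested genes, 15.6% did not overlap on the lower side and 13.2% on the higher side. S100A4, EPCAM and CLDN4 were not called (edgeR adjusted p = 0.180, 0.385 and 0.268). The MDA-MB-231 list includes CD44 and ITGB1, which are among the genes described here. The part of these lists in the results was not tested. In bulk RNA, fewer cells of a kind and less RNA per cell cannot be told apart.

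The type IV collagen genes lie in pairs that share a promoter region, and these windows are shown because the members of the pair COL4A1 and COL4A2 moved together. The RefSeq start sites of COL4A2 (plus strand) and COL4A1 (minus strand) lie 127 bases apart on chromosome 13, and their windows, each 250 bases before to 50 after a start, overlap by 226 bases. For COL4A5 (plus strand) and COL4A6 (minus strand) on the X chromosome the start sites lie 380 or 1416 bases apart, depending on the COL4A6 start. The windows below are from RefSeq on GRCh38.p14, 5' to 3' on the gene's own strand, with matches to GGGCGG and CCAAT on either strand in capitals.
COL4A2, chr13:110307034-110307333, plus strand: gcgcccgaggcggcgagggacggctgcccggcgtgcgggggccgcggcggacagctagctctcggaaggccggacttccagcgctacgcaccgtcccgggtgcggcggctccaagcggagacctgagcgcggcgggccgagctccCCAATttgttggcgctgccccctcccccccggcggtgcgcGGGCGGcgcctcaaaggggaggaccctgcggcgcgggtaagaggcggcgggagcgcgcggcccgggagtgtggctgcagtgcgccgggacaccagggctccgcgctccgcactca
COL4A5, chrX:108439588-108439887, plus strand: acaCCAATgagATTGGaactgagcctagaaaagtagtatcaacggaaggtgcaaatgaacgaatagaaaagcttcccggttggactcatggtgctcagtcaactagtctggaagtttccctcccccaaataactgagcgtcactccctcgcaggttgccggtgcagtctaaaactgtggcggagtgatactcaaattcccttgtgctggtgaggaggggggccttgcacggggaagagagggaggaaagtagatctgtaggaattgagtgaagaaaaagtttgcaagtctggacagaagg
GGGCGG matched in the windows of COL4A2 and COL4A1. Of the other pair it matched in 1 of the 2 COL4A6 windows and not in that of COL4A5, so it did not separate the pairs. CCAAT matched in the windows of all 4 genes, except the COL4A6 window that held the other motif. Some of these matches are the same bases read on both strands, because windows of a pair overlap. The overlap is 226 bases for COL4A2 and COL4A1, and 121 bases for COL4A5 and the nearer COL4A6 start. For background, GGGCGG was found in 65.0% of the 60 windows of the genes described here and in 45.0% of the 35116 human windows in the table, and CCAAT in 23.3% and 34.6% of the same windows. A match describes these letters only. RefSeq windows were at hand for 45 of the 63 genes, and that of LAMC3 was not among them.

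COL4A1 (GENCODE 29 places it on GRCh38 chromosome 13 from 110148963 to 110307233, minus strand) encodes the main type IV collagen chain of most basement membranes. It had 27.3, 30.3 and 27.6 CPM in CTI-2 libraries 1 to 3, against 49.7, 42.2 and 61.7 CPM in controls 1 to 3. Every CTI-2 library was below every control, with a log2 fold change of -0.78 (SE 0.15) and an adjusted p of 0.00110. COL4A1 passed under every alternative run, with an adjusted p of 8.17e-05 to 0.00750 over them. COL4A2 (chromosome 13, 110305812 to 110513209, plus strand), whose chain joins that of COL4A1 in the same triple helix, had 39.6, 42.1 and 44.8 CPM in CTI-2 libraries and 68.6, 49.1 and 89.8 CPM in controls. Again the groups did not overlap (log2 fold change -0.64, SE 0.15, adjusted p = 0.00790), but the call was lost without control 3 (-0.44, adjusted p = 0.0636). The annotated spans of both genes overlap by 1422 bases on opposite strands, and no source used here says if reads were assigned by strand, so those in that stretch are uncertain.

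COL4A5 and COL4A6, whose chains build the type IV network of selected basement membranes such as those of skin and kidney, did not pass. COL4A5 had 83.7, 69.8 and 90.6 CPM in CTI-2 libraries and 102, 64.6 and 109 CPM in controls (log2 fold change -0.10, SE 0.14, adjusted p = 0.704). COL4A6 had 40.6, 53.9 and 57.5 CPM in CTI-2 libraries and 63.2, 44.5 and 72.8 CPM in controls (-0.18, SE 0.15, adjusted p = 0.499). For both genes the groups overlapped through control 2. A ratio of reads within a library does not depend on how libraries are scaled. Per 100 COL4A5 reads there were 32.6, 43.5 and 30.5 COL4A1 reads in CTI-2 libraries and 48.9, 65.4 and 56.4 in controls. Per 100 COL4A6 reads there were 97.7, 78.1 and 78.0 COL4A2 reads in CTI-2 libraries and 109, 110 and 123 in controls. Both ratios were lower in every CTI-2 library than in every control, control 2 included. In a two-sided exact permutation test each gave p = 0.1, the smallest that 3 against 3 libraries allow, and 0.180 when adjusted over the 9 ratios computed. The ratios were chosen after the values were seen.

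**Figure D3:**
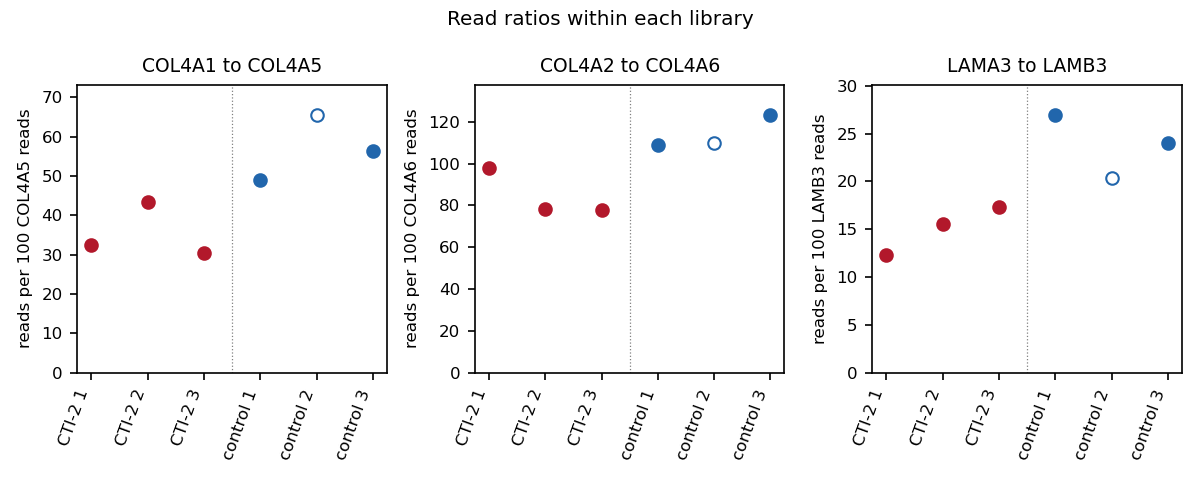
Reads of a gene per 100 reads of a partner gene (vertical axes, from 0) in each library, CTI-2 in red and controls in blue, control 2 open. In all 3 ratios the CTI-2 libraries lie below the controls, for example 30.5 to 43.5 against 48.9 to 65.4 for COL4A1 to COL4A5. The 3 come from 9 ratios computed, chosen after the values were seen, and others, such as ITGA5 to ITGB1, overlapped between groups.

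The remaining non-fibrillar collagens did not pass. COL18A1, whose chain carries endostatin at its end, had 4.76, 5.06 and 4.08 CPM in CTI-2 libraries and 7.32, 7.13 and 11.9 CPM in controls. The groups did not overlap, with a log2 fold change of -0.82 (SE 0.31) on 9 to 28 counts per library and an adjusted p of 0.0933. It overlaps SLC19A1 on the other strand. COL7A1, the anchoring fibril collagen of skin, had 72.3, 74.1 and 64.3 CPM in CTI-2 libraries and 96.7, 58.3 and 111 CPM in controls (-0.25, adjusted p = 0.349). Without control 2 COL7A1 passed (-0.45, adjusted p = 0.0129), and without control 3 it was -0.08 (adjusted p = 0.810). COL12A1, COL9A3, COL8A1, COL6A1 and COL16A1 had log2 fold changes between -0.41 and 0.39. Over the 11 tested genes of this group 2 were lower, COL4A1 and COL4A2, and none higher, with a median of -0.25. Over all tested genes 4.64% were called lower and 3.39% higher.

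None of the 4 tested fibrillar collagens passed, and all had lower means after CTI-2. Over all tested genes 8.03% were called in either direction, so nothing is read from 4 genes without a call. COL5A2, a chain of the type V collagen that starts and limits fibre growth, had 169, 169 and 181 CPM in CTI-2 libraries and 263, 160 and 290 CPM in controls. Control 2 lay below all CTI-2 libraries and the other controls far above them (log2 fold change -0.39, SE 0.14, adjusted p = 0.0923). COL5A1, the other main type V chain, had 37.1, 48.2 and 43.0 CPM in CTI-2 libraries and 68.9, 47.6 and 114 CPM in controls. Its controls spread more widely than those of COL5A2, with control 3 highest (-0.75, SE 0.31, adjusted p = 0.213). COL1A1, the major collagen of bone and skin, had 59.6, 60 and 58.0 CPM in CTI-2 libraries and 87.4, 52.2 and 82.1 CPM in controls (-0.24, adjusted p = 0.292). COL27A1, a cartilage collagen, had 19.0, 22.6 and 14.9 CPM in CTI-2 libraries and 29.7, 22.1 and 30.6 CPM in controls (-0.45, adjusted p = 0.123). For all 4 genes control 2 lay within or below the CTI-2 range and the other controls above it. The 9 fibrillar genes summed to 287, 303 and 297 CPM in CTI-2 libraries, against 452, 287 and 521 CPM in controls. Without control 2 COL5A2 (-0.58, adjusted p = 2.87e-04), COL5A1 (-0.99, adjusted p = 0.00542) and COL1A1 (-0.42, adjusted p = 0.0235) passed. Without control 3 none of them passed: COL5A2 was -0.25 (adjusted p = 0.303), COL5A1 -0.40 (adjusted p = 0.116) and COL1A1 -0.18 (adjusted p = 0.537). COL5A1 also passed with all libraries in DESeq2 (-0.74, adjusted p = 0.0269) and without a filter on low counts (adjusted p = 3.61e-05), where COL5A2 passed as well (adjusted p = 0.0352).

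**Figure D4:**
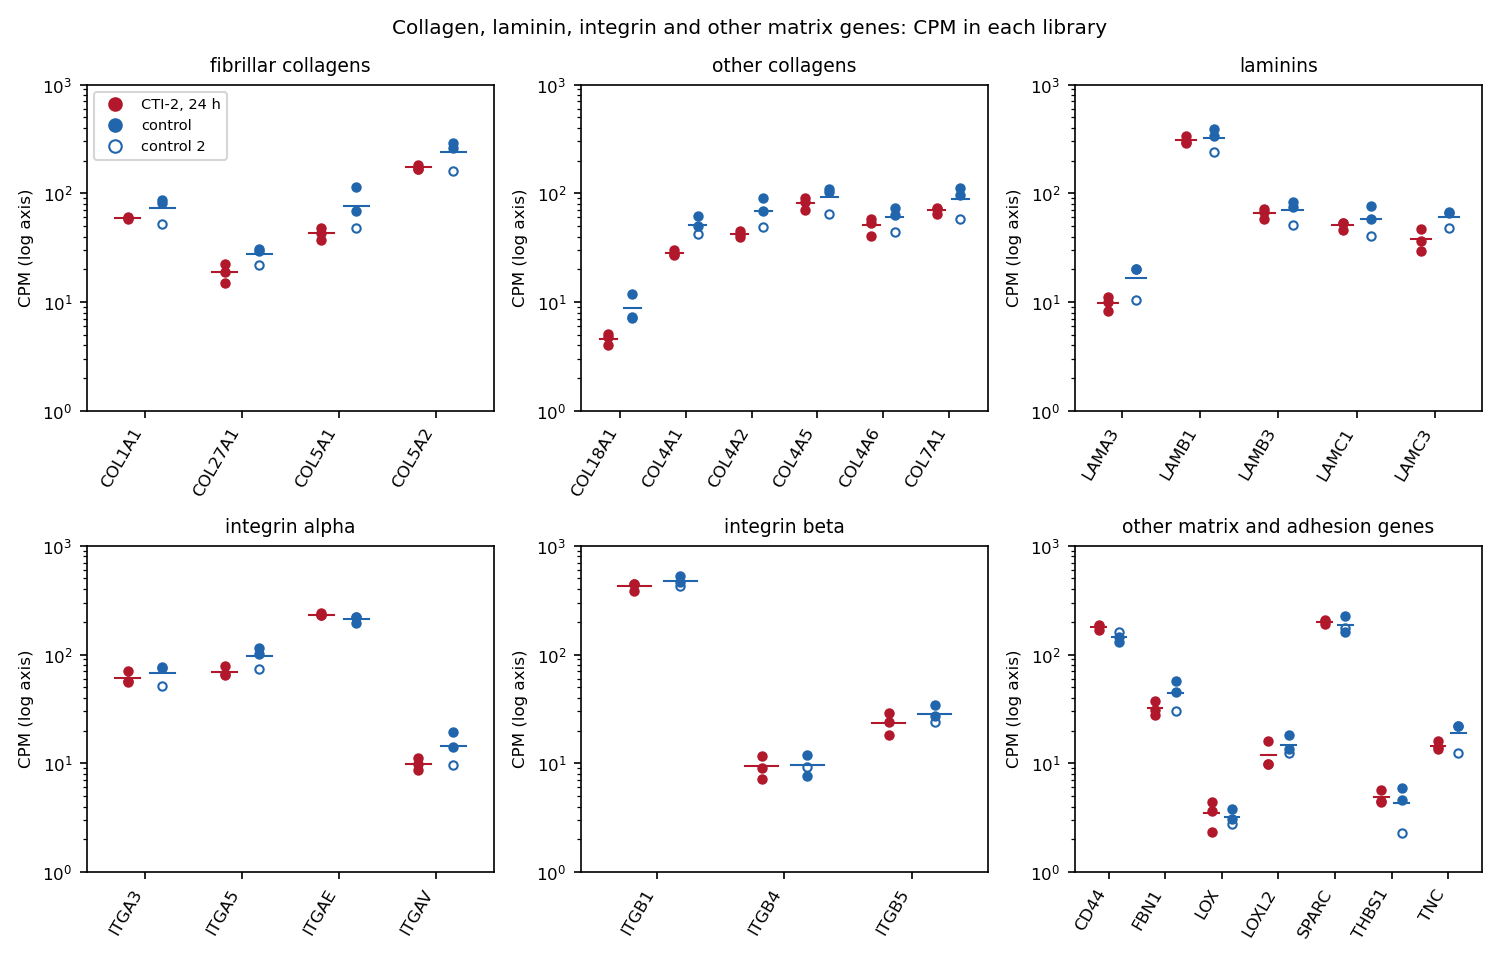
CPM (log axis) of the genes described, in each library, with CTI-2 in red to the left of the controls in blue for each gene, control 2 as an open circle and lines at the group means (3 libraries each). In the fibrillar collagens control 2 sits near the CTI-2 points, as for COL5A2 with 169 to 181 CPM in CTI-2 libraries and 160 CPM in control 2.

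Among laminins LAMC3 fell and no beta chain passed, where 8.03% of all tested genes were called in either direction. LAMC3 (GRCh38 chromosome 9, 131009082 to 131094473, plus), a gamma chain found outside the usual basement membranes as well, had 47.2, 36.4 and 29.4 CPM in CTI-2 libraries and 65.9, 48.4 and 67.7 CPM in controls. The groups did not overlap, though CTI-2 library 1 came close to control 2 (log2 fold change -0.60, SE 0.15, adjusted p = 0.0119). The call was lost in 3 of the 6 fits that leave out a library: control 1 (adjusted p = 0.0587), CTI-2 library 2 (0.0519) and CTI-2 library 3 (-0.46 on the log2 scale, 0.0915). LAMC1, the gamma chain of most laminins, had 53.6, 52.9 and 46.2 CPM in CTI-2 libraries and 57.8, 40.5 and 75.8 CPM in controls (-0.10, adjusted p = 0.748).

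LAMA3 and LAMB3 encode chains of the epithelial laminin that anchors hemidesmosomes. LAMA3 had 8.24, 11.1 and 9.96 CPM in CTI-2 libraries and 20, 10.4 and 20 CPM in controls. Control 2 fell within the CTI-2 range and the other controls were well above it (log2 fold change -0.68, SE 0.24, adjusted p = 0.0770). Without control 2 LAMA3 passed (-0.93, adjusted p = 0.00903), and without control 1 it was -0.53 (adjusted p = 0.285). LAMB3 had 66.9, 71.5 and 57.5 CPM in CTI-2 libraries and 74.3, 51.2 and 83.4 CPM in controls (-0.01, SE 0.14, adjusted p = 0.975), with the controls on both sides of the CTI-2 libraries. LAMA3 had 12.3, 15.6 and 17.3 reads per 100 LAMB3 reads in CTI-2 libraries and 26.9, 20.4 and 24.0 in controls. This ratio did not overlap between groups and gave an exact permutation p of 0.1, the smallest possible here, and 0.180 adjusted over the 9 ratios. The pair was chosen after the values were seen, which the adjustment does not cover, so no conclusion is drawn from its separation.

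LAMB1, the beta chain of most laminins, had 335, 289 and 295 CPM in CTI-2 libraries and 336, 240 and 393 CPM in controls (log2 fold change -0.01, SE 0.12, adjusted p = 0.969). LAMB1 overlaps DLD on the other strand. LAMB2, LAMA5 and LAMA4 had log2 fold changes of -0.27, -0.40 and 0.04 and adjusted p of 0.302, 0.233 and 0.963.

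Integrin subunits showed no called change, with 7 alpha and 3 beta subunits tested. Over all tested genes 8.03% were called in either direction, so with this few genes nothing is read from the absence of calls. ITGA5 (GRCh38 chromosome 12, 54395261 to 54419460, minus), the alpha subunit of the fibronectin receptor, came nearest. It had 65.0, 78.5 and 65.7 CPM in CTI-2 libraries and 101, 74.3 and 114 CPM in controls. Only control 2 overlapped the CTI-2 range (log2 fold change -0.40, SE 0.13, adjusted p = 0.0507). ITGA5 lay on the threshold: it passed with DESeq2's size factors (adjusted p = 0.0467), with a stricter filter on low counts (adjusted p = 0.0387) and without control 2 (-0.52, adjusted p = 0.00643). Adjusted p reached 0.212 without control 3. ITGB1, its only beta partner and the subunit shared by most integrins, had 383, 442 and 444 CPM in CTI-2 libraries and 465, 429 and 521 CPM in controls (-0.10, SE 0.11, adjusted p = 0.608). Per 100 ITGB1 reads there were 17.0, 17.8 and 14.8 ITGA5 reads in CTI-2 libraries and 21.7, 17.3 and 22.0 in controls, overlapping at control 2 (exact permutation p = 0.200, 0.257 adjusted over the 9 ratios).

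ITGA3, whose integrin binds laminin, had 71.0, 55.6 and 57.5 CPM in CTI-2 libraries and 77.0, 51.9 and 74.9 CPM in controls (log2 fold change -0.07, adjusted p = 0.803). ITGAV, the alpha subunit of the vitronectin receptors, had 11.1, 9.77 and 8.6 CPM in CTI-2 libraries and 19.6, 9.67 and 14.0 CPM in controls (-0.45, SE 0.25, adjusted p = 0.267). Control 2 was below the other controls for both genes, under the CTI-2 range for ITGA3 and within it for ITGAV. ITGAE, known for holding lymphocytes to epithelium, had 239, 232 and 229 CPM in CTI-2 libraries and 220, 222 and 196 CPM in controls. All CTI-2 libraries were above all controls, but by little (0.18, SE 0.11, adjusted p = 0.324). Without control 2 ITGAE passed narrowly (0.27, adjusted p = 0.0495), and without control 3 it was 0.10 (adjusted p = 0.669). ITGAE overlaps HASPIN on the other strand. The collagen receptors ITGA1 and ITGA2 and the laminin receptor subunit ITGA6 had log2 fold changes of -0.43, 0.22 and 0.00 on 10 to 33 counts per library. Of the beta subunits, ITGB5, a partner of ITGAV, had 28.9, 23.9 and 18.1 CPM in CTI-2 libraries and 27.0, 23.9 and 34.5 CPM in controls (-0.17, adjusted p = 0.598). ITGB4, the hemidesmosome subunit, had 11.7, 9.10 and 7.25 CPM in CTI-2 libraries and 7.70, 9.16 and 11.9 CPM in controls (0.05, adjusted p = 0.940). Neither beta subunit separated the groups.

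Per kilobase of the longest annotated transcript, ITGB1 had a mean of 112 CPM in CTI-2 libraries and 125 CPM in controls. ITGAE followed among integrins with 60.5 CPM in CTI-2 libraries and 55.1 CPM in controls, then ITGA5 with 15.7 CPM in CTI-2 libraries and 21.7 CPM in controls. ITGA3 had 12.6 CPM in CTI-2 libraries and 13.9 CPM in controls on this scale. On the same scale LAMB1 had 53.1 CPM in CTI-2 libraries and 56.0 CPM in controls, and COL5A2, the highest collagen, had 24.4 CPM in CTI-2 libraries and 33.6 CPM in controls. Since a long read can stand for a whole transcript, division by length may understate long genes.

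CD44 (GRCh38 chromosome 11, 35138870 to 35232402, plus) came nearest to a higher call. It had 183, 169 and 188 CPM in CTI-2 libraries and 131, 160 and 144 CPM in controls. Every CTI-2 library was above every control, with control 2 the nearest, and the test narrowly missed the threshold (log2 fold change 0.35, SE 0.11, adjusted p = 0.0527). Without control 2 CD44 passed (0.49, adjusted p = 0.00231). The range was 0.00231 to 0.271 over all alternatives, the highest without control 1. SPARC had 205, 208 and 192 CPM in CTI-2 libraries and 160, 175 and 225 CPM in controls (0.17, adjusted p = 0.395). FBN1 had 37.4, 27.6 and 31.2 CPM in CTI-2 libraries and 45.1, 30.0 and 56.6 CPM in controls (-0.36, adjusted p = 0.202). Without control 2 FBN1 passed (-0.55, adjusted p = 0.0260), and without control 3 it was -0.17 (adjusted p = 0.640). TNC had 15.9, 14.2 and 13.6 CPM in CTI-2 libraries and 22.0, 12.5 and 22.1 CPM in controls (-0.27, adjusted p = 0.472). For TNC control 2 was the lowest of all 6 libraries.

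The collagen crosslinking genes and THBS1 gave few reads. LOXL2 had 16.2, 9.77 and 9.96 CPM in CTI-2 libraries and 13.5, 12.5 and 18.3 CPM in controls (log2 fold change -0.21, adjusted p = 0.639); it overlaps ENTPD4. LOX had 14, 7 and 8 counts in CTI-2 libraries and 8, 11 and 9 counts in controls (0.17, adjusted p = 0.845). THBS1 had 14, 17 and 10 counts in CTI-2 libraries and 12, 9 and 14 counts in controls (0.33, adjusted p = 0.633).

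**Figure D5:**
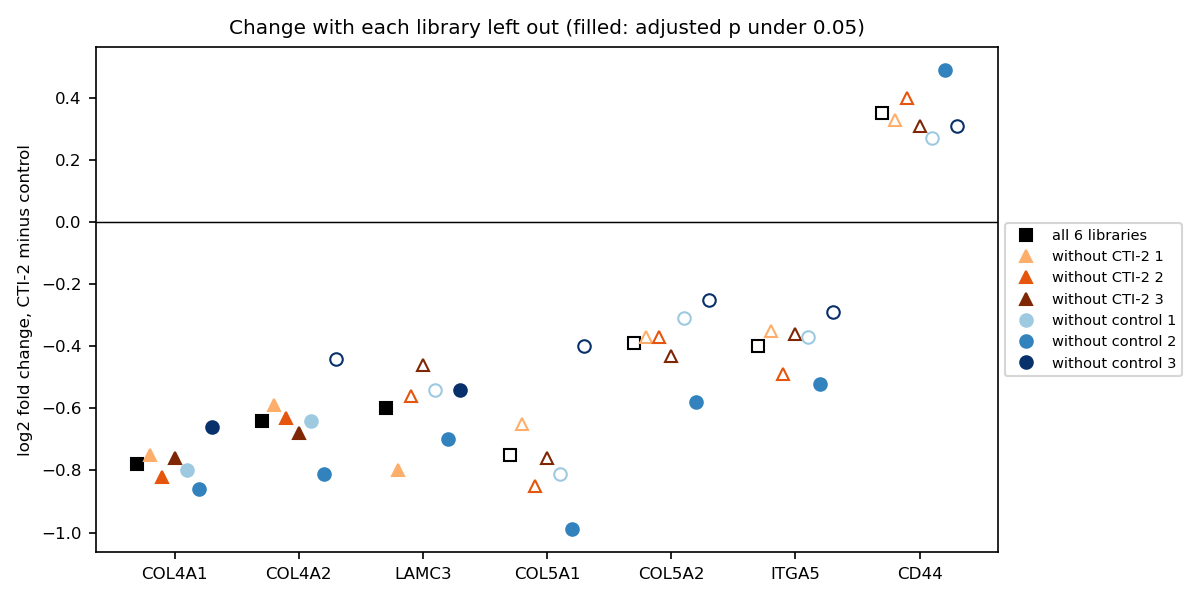
Log2 fold change (vertical axis, CTI-2 minus control) of 7 genes with all 6 libraries (square) and with each library left out in turn; filled symbols passed an adjusted p of 0.05. COL4A1 is filled throughout, and COL5A1, COL5A2, ITGA5 and CD44 are filled only without control 2.

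Over the 41 tested genes the CPM of the groups did not overlap for 5 lower genes, among them COL18A1, COL4A1, COL4A2 and LAMC3, and 2 higher ones (CD44 and ITGAE). Over all tested genes 15.6% did not overlap on the lower side and 13.2% on the higher side, so the shares here were not above the background. The other 22 genes had too few reads for the test. Of these, 16 had at most 3 counts in any library: COL1A2, COL2A1, COL3A1, COL4A4, COL6A2, COL9A2, COL13A1, COL17A1, COL20A1, COL26A1, COL28A1, LAMA1, ITGA7, ITGA9, ITGAM and ITGB8. COL5A3, COL11A2, COL15A1, LAMA2, ITGB2 and ITGB7 reached at most 14.

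AP-1 factors bind TGANTCA elements and act downstream of MAPK signalling, which the series title names, so promoter windows were searched for TGANTCA on both strands. ITGA5, LAMA3 and LAMB3 held a match, 3 of the 45 genes with a window (5.0% of their 60 windows, against 7.71% of all 35116). Their windows, from the same RefSeq build and 5' to 3' on the gene's strand, are shown with the matches in capitals because LAMA3 and LAMB3 encode chains of the same laminin and ITGA5 lay at the threshold.
ITGA5, chr12:54419217-54419516, minus strand: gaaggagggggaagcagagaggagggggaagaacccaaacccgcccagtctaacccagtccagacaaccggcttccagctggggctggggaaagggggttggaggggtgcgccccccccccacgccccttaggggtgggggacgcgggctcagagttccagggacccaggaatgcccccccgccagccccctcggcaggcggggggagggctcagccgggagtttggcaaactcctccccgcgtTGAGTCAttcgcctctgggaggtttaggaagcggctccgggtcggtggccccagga
LAMA3, chr18:23872770-23873069, plus strand: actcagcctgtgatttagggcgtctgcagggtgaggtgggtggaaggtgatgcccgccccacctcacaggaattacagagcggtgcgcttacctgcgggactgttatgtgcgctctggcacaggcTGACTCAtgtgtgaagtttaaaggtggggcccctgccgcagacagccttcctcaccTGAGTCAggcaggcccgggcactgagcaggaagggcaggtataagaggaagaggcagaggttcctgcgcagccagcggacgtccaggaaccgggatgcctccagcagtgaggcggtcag
LAMB3, chr1:209651325-209651624, minus strand: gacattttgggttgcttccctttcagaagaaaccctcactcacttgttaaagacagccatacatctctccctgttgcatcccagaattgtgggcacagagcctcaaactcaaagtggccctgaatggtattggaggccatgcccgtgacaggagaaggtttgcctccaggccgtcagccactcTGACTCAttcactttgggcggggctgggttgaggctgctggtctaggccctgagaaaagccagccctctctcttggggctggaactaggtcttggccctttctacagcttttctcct
LAMA3 held 2 matches, and ITGA5 and the LAMB3 window shown held 1 each. The LAMB3 windows at its other start sites, 209652425 and 209652329, held none. Log2 fold changes of ITGA5, LAMA3 and LAMB3 were -0.40, -0.68 and -0.01, none past the threshold.

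Other genes that make, modify or bind the same matrix were read from 4 lists chosen by function, with earlier results of these data known. With lists chosen that way, no excess over all tested genes is read from the shares below. Of 64 tested genes 7 were lower and 3 higher (10.9% and 4.69%, against 4.64% and 3.39% of all tested genes). In collagen folding and processing 3 of 18 fell and none rose (median log2 fold change -0.23). The lysyl hydroxylase gene PLOD3 had 78.3, 85.6 and 72.5 CPM in CTI-2 libraries and 124, 82.2 and 155 CPM in controls (-0.53, adjusted p = 0.0342). The collagen galactosyltransferase gene COLGALT1 had 52.3, 47.5 and 50.3 CPM in CTI-2 libraries and 56.6, 70.5 and 86.8 CPM in controls, a log2 fold change of -0.46 with an edgeR adjusted p of 0.0341. P4HB, the prolyl hydroxylase subunit and disulfide isomerase gene, had 5.07, 11.8 and 11.3 CPM in CTI-2 libraries and 13.9, 16.5 and 20.9 CPM in controls (-0.84, adjusted p = 0.0368). All 3 calls were lost with the transcript length trend removed, in DESeq2 and without control 3, among other libraries left out (adjusted p up to 0.261). PLOD3 overlaps ZNHIT1.

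Among other secreted matrix genes 2 of 14 fell and none rose (median log2 fold change -0.51). Over all tested genes 4.64% were called lower and 3.39% higher. TGFBI, whose matrix protein binds collagens and integrins, had 76.4, 137 and 132 CPM in CTI-2 libraries and 260, 225 and 306 CPM in controls (-1.15, adjusted p = 0.00658). HSPG2, the gene of the basement membrane proteoglycan perlecan, also fell (-1.11, adjusted p = 0.0442). HSPG2 had 2.85, 3.37 and 4.08 CPM in CTI-2 libraries and 10.8, 5.09 and 7.66 CPM in controls, and its call held only without control 2 among the libraries left out (adjusted p up to 0.263). It was also lost with library totals, with the length trend removed, in DESeq2 and in all 3 limma fits. HSPG2 overlaps LDLRAD2. TGFBI missed without control 2 or control 3 (adjusted p up to 0.102). In integrin activation and linkage, 2 of 23 rose, RSU1, a partner of the integrin-linked kinase complex, and RAP1B, a small GTPase of integrin activation (0.50 and 0.37), while the integrin-associated CD47 fell (-0.79, adjusted p = 0.0224). The median log2 fold change of the 23 was -0.08. RSU1 had 91.6, 95.4 and 99.6 CPM in CTI-2 libraries and 73.6, 68.2 and 67.7 CPM in controls, and passed whichever library was left out (adjusted p = 0.00664, up to 0.0441). RAP1B had 99.9, 99.8 and 117 CPM in CTI-2 libraries and 91.3, 85.0 and 74.9 CPM in controls (adjusted p = 0.0480). Its call was lost when any library except control 2 was left out (adjusted p up to 0.251), and also with library totals, either other filter, DESeq2 and all 3 limma fits. CD47 had 13, 8.09 and 14.5 CPM in CTI-2 libraries and 25.4, 20.6 and 16.6 CPM in controls. The call did not hold in DESeq2, with the length trend removed, or when control 1, control 2 or CTI-2 library 2 was left out, where adjusted p reached 0.181.

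Of 9 other matrix receptors, the syndecan gene SDC2, a cell-surface heparan sulfate proteoglycan, fell to 12.4, 14.8 and 18.6 CPM in CTI-2 libraries, against 37.0, 36.4 and 37.0 CPM in controls. The controls lay close together, control 2 included (log2 fold change -1.25, SE 0.18, adjusted p = 1.84e-05), and the call held whichever library was left out (adjusted p up to 4.30e-04). SDC4, another syndecan, rose to 48.8, 45.8 and 44.8 CPM in CTI-2 libraries, against 37.0, 33.3 and 35.7 CPM in controls (0.45, adjusted p = 0.0410); its call was lost in DESeq2 and without any library except control 2.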

How the data were processed

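Read counts per gene were deposited by the authors for 6 libraries, with a second table of CPM deposited by the authors that equals each count divided by its library total and scaled to 1000000. Per the submitters' processing notes reads were aligned with minimap2; the version, genome build, annotation, counter and use of strand were not in the sources used here. cDNA was amplified without molecular identifiers. Counts were filtered (edgeR's filterByExpr, 9848 of 16362 genes kept), scaled by TMM, then fitted in R 4.3.3 with edgeR 4.0.16 (robust quasi-likelihood test), CTI-2 minus control, with Benjamini-Hochberg adjustment and a threshold of 0.05. SE is the size of the log2 fold change over the root of F. The fit was tested on simulated data, drawn with the same dispersion in every library. That simulation held no outlying control and no trend with length, so it does not cover these features of the data. No source says that libraries came from separate cultures, so p-values may measure technical spread only. Same-group libraries differed by more than sampling noise, and controls by more than CTI-2 libraries. Chi-square over its degrees of freedom was 1.77 to 2.43 between CTI-2 libraries and 3.92 to 6.76 between controls, highest for controls 2 and 3.

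GENCODE 29 gave transcript lengths for 93.6% of tested genes, and coordinates (GRCh38, 1-based) where its span equals the deposited gene length (53 of the 63 genes). Promoter windows are RefSeq's. Genes overlapping others are uncertain (12 of the 41 tested). Lists were matched by Ensembl identifier. The genes and lists were chosen with earlier results of these data known. Values by library are given for genes past the threshold or with an unadjusted p under 0.05, the 4 genes per family with most CPM and the 7 named genes, and for list genes past the threshold, up to 4 a list; the promoter motifs and read ratios were chosen after values were seen. Alternatives were DESeq2 1.42.0 and its size factors, library totals, other filters, limma 3.58.1 (voom, and log2 of CPM plus 1 or 0.5), the replicate number as a block, removal of the length trend (lowess, span 0.3), an adjusted p of 0.01 and leaving out each library. Some genes, counted in the totals, are not reported here.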

Additional observations from a re-analysis of the deposited data

How the results depend on the processing

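Of 470 values of 30 genes under the alternatives, 414 kept direction and side of the threshold, 19 gained the call, 14 lost it and 23 changed sign; none of the sign changes was in a called gene. With all 6 libraries, 3 to 7 genes were lower and 0 or 1 higher at an adjusted p of 0.05. Over all tested genes these fits called 3.25% to 5.95% lower and 1.93% to 3.78% higher. An adjusted p of 0.01 left 2 lower genes, COL4A1 and COL4A2. No share of all tested genes is given at 0.01, so counts at 0.01, here and below, have no background. The length trend's removal gave 1 higher gene. The replicate number as a block gave 7 lower genes and 1 higher (5.95% and 3.61% of all tested genes), gaining COL5A1, COL5A2, ITGA5 and CD44; same-numbered libraries did not deviate together (correlations -0.049, 0.007 and -0.124), so the numbers are not taken to pair them. Leaving out a library gave 2 to 12 lower genes, 0 to 2 higher genes and medians of -0.33 to -0.12. Over all tested genes 2.74% to 6.53% were then lower and 1.08% to 9.57% higher. Of the listed other matrix and adhesion genes, 7 were lower and 3 higher by the edgeR test. The lower count became 3 with the length trend removed, 2 in DESeq2, 4 in limma-voom and 2 at an adjusted p of 0.01. The share of all tested genes called lower was 4.08% with the length trend removed, 3.25% in DESeq2 and 4.12% in limma-voom. The higher count became 1 with library totals, without a filter, in DESeq2, with limma on log2 of CPM plus 1 or 0.5, and at an adjusted p of 0.01. At an adjusted p of 0.05 these fits called 1.93% to 3.78% of all tested genes higher. Leaving out a library gave 2 to 7 lower and 1 to 5 higher, with the same all-gene shares as above. The cause was not tested. Sign changed near 0 for LAMB1 (0.00 with the block, 0.06 without the length trend, 0.01 in DESeq2, 0.00 in limma-voom), LAMB3 (0.02 without the length trend, 0.01 in DESeq2 and in limma-voom) and ITGB4 (-0.04 in both limma fits on log2 CPM). With a library left out LAMB1 ranged over -0.15 to 0.12, LAMB3 -0.16 to 0.11, LAMC1 -0.28 to 0.10, COL4A5 -0.28 to 0.01, ITGA3 -0.20 to 0.02 and ITGB4 -0.16 to 0.18. LOX, THBS1, COL18A1, ITGA1, ITGA2 and ITGA6, with 7 to 33 counts per library, had SE of 0.28 to 0.42 on the log2 scale.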

Other observations

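For COL1A1 and ITGAE, whose proteins are known to be built with a partner chain, the partner had almost no reads. COL1A1 had 188, 178 and 128 counts in CTI-2 libraries and 227, 205 and 193 counts in controls, and COL1A2, whose chain joins it in ordinary type I collagen, had 1, 0 and 0 counts in CTI-2 libraries and 0, 3 and 0 counts in controls. The transcripts are of like annotated length, 6727 and 5411 bases. ITGAE had 754, 688 and 506 counts in CTI-2 libraries and 572, 871 and 461 counts in controls, and ITGB7, its only known beta partner, had 2, 1 and 2 counts in CTI-2 libraries and 1, 6 and 2 counts in controls. Both overlap a gene on the other strand, HASPIN for ITGAE and ZNF740 for ITGB7. No source used here says if reads were assigned by strand, so the counts of ITGAE and ITGB7 are uncertain.

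Within the type V collagen pair, COL5A1 had 22.0, 28.6 and 23.8 reads per 100 COL5A2 reads in CTI-2 libraries and 26.2, 29.7 and 39.1 in controls (exact permutation p = 0.200, 0.257 adjusted over the 9 ratios). Within the type IV pairs, COL4A1 had 68.8, 72.0 and 61.6 reads per 100 COL4A2 reads in CTI-2 libraries and 72.5, 86.0 and 68.7 in controls (exact permutation p = 0.3, adjusted 0.338), and COL4A5 had 206, 129 and 157 reads per 100 COL4A6 reads in CTI-2 libraries and 161, 145 and 150 in controls (exact permutation p = 0.800). Between the gamma chains, LAMC3 had 88.2, 68.8 and 63.7 reads per 100 LAMC1 reads in CTI-2 libraries and 114, 119 and 89.3 in controls, without overlap but with CTI-2 library 1 close to control 3 (exact permutation p = 0.1, adjusted 0.180). All these ratios were chosen after the values were seen, which the adjustment does not cover.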
